A study of Rattus norvegicus with 21 samples.

Results

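Haem synthesis and breakdown was followed in rat liver through the transcripts of 9 enzymes: Alas1, Alad, Uros, Urod, Cpox, Ppox and Fech, which build haem, and Blvra and Blvrb, the biliverdin reductases. They were found by gene symbol in the platform annotation and are 9 of the 14217 genes measured. The array carries 10 of its 31042 tested probe sets for them, with a pair of probe sets for Uros and a single one for each other enzyme. None of the 10 names several genes, and every one lay above the median signal on every array.

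Haem is the iron-porphyrin group of the cytochromes P450, catalase and haemoglobin. Alas1 carries out the first and rate-limiting step in liver, in the mitochondrion, joining glycine to succinyl-CoA; haem itself represses the gene, destabilises its mRNA and blocks import of the protein. Alad, Uros and Urod act in the cytosol, Cpox, Ppox and Fech complete the ring and insert iron back in the mitochondrion, and haem oxygenases open the ring to biliverdin, which biliverdin reductases turn into bilirubin. Drugs that induce cytochromes P450 are known to raise hepatic Alas1.

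The rats were male Harlan Sprague Dawley animals given tert-butylphenyl diphenyl phosphate (BPDP), an organophosphate flame retardant and plasticiser, gavaged in corn oil on 4 consecutive days, with left liver lobe taken on day 5. The 6 groups received corn oil alone (6 arrays) or BPDP at 64.6, 129.2, 258.1, 516.2 or 1032.5 mg/kg (3 arrays each), a span of 0.169 to 2.7 mmol/kg. All groups share the strain, sex, route and oil, and the labels used here give no age and no genetic alteration. The treatment protocol speaks of 5 vehicle rats while 6 vehicle arrays are listed, so p-values measure the spread between arrays, of which a pair may share an animal.

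Signals are log2 values summarised by RMA, a method that corrects background, normalises arrays to one another and combines the probes of a set. A difference of 1 is therefore a doubling, and signals of different genes are not compared because probes differ in brightness. Array medians lay between 6.30 and 6.39, and arrays correlated pairwise at 0.984 to 0.995 over all probe sets. The mean 5' minus 3' log2 difference of the Gapdh and beta-actin control probe sets, a measure of RNA integrity, was -1.95 ± 0.29 (SD, n = 6) in the vehicle group and -1.54 ± 0.37 (SD, n = 3) at 1032.5 mg/kg. It went the other way at 516.2 mg/kg, at -2.30 ± 0.64 (SD, n = 3), and at 258.1 mg/kg was -2.03 ± 0.93 (SD, n = 3) with 1 array at -3.10. None of the 7 hepatocyte markers (such as Alb, Apoa1 and Ttr) passed the test at any dose, and their summed log2 signal lay between 17.18 and 17.29 on all arrays. Such sums are the log2 of added linear signals, so the brightest markers weigh most. The highest hepatocyte sums were 17.219 at 258.1 mg/kg, 17.215 at 516.2 mg/kg and 17.227 at 1032.5 mg/kg. These lay just below the lowest vehicle array, at 17.232, a difference that was not tested. The defining markers of the labelled tissue were present in every group.

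The promoters of the enzymes with a called rise at any dose are printed first, because they are the members on which the results turn. RefSeq's table for build GRCr8 held a window of 250 bases before to 50 after the annotated start for 8 of the 9 genes; Cpox was not matched. The windows below are Alas1 (chr8:115768593-115768892, minus strand), Uros (chr1:197942179-197942478, minus strand) and Blvrb (chr1:91866008-91866307, plus strand). Capitals mark matches to the motifs searched.
Alas1: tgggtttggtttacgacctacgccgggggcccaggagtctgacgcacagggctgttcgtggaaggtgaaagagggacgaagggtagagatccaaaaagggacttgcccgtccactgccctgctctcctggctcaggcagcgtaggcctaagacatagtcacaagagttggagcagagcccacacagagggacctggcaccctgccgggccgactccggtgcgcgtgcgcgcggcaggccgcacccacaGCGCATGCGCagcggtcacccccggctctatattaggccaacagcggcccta
Uros: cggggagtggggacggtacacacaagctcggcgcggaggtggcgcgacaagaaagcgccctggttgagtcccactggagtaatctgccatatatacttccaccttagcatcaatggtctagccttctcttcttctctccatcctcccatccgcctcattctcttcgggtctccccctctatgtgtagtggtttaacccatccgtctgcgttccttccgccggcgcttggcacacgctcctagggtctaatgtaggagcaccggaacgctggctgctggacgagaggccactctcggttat
Blvrb: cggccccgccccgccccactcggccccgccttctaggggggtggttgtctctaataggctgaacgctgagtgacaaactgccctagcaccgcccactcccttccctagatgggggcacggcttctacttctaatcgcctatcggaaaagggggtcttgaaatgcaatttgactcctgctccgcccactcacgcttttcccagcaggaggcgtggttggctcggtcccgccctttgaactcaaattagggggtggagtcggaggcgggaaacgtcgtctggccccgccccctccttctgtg

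Searched on both strands were the E-box CACGTG, the antioxidant response element core TGACNNNGC, the D-box TTATGTAA or TTACGTAA and the NRF-1 motif GCGCATGC. The Alas1 window held NRF-1 on each strand, overlapping as GCGCATGCGC, with first bases at -2 and +1 from the annotated start; NRF-1 is a regulator of nuclear genes for mitochondrial proteins. Of 33469 rat promoter windows 2.47% hold that motif. Uros and Blvrb held none of the 4 motifs, and neither did Ppox or Fech. E-boxes stood at -223 and +12 in Alad and at -75 in Urod, and an antioxidant response element core stood at -145 in Blvra. The shares over all windows were 6.42% for the E-box, 12.1% for the antioxidant response element core and 1.01% for the D-box. A match is a description of letters, and binding was not measured.

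**Figure D1:**
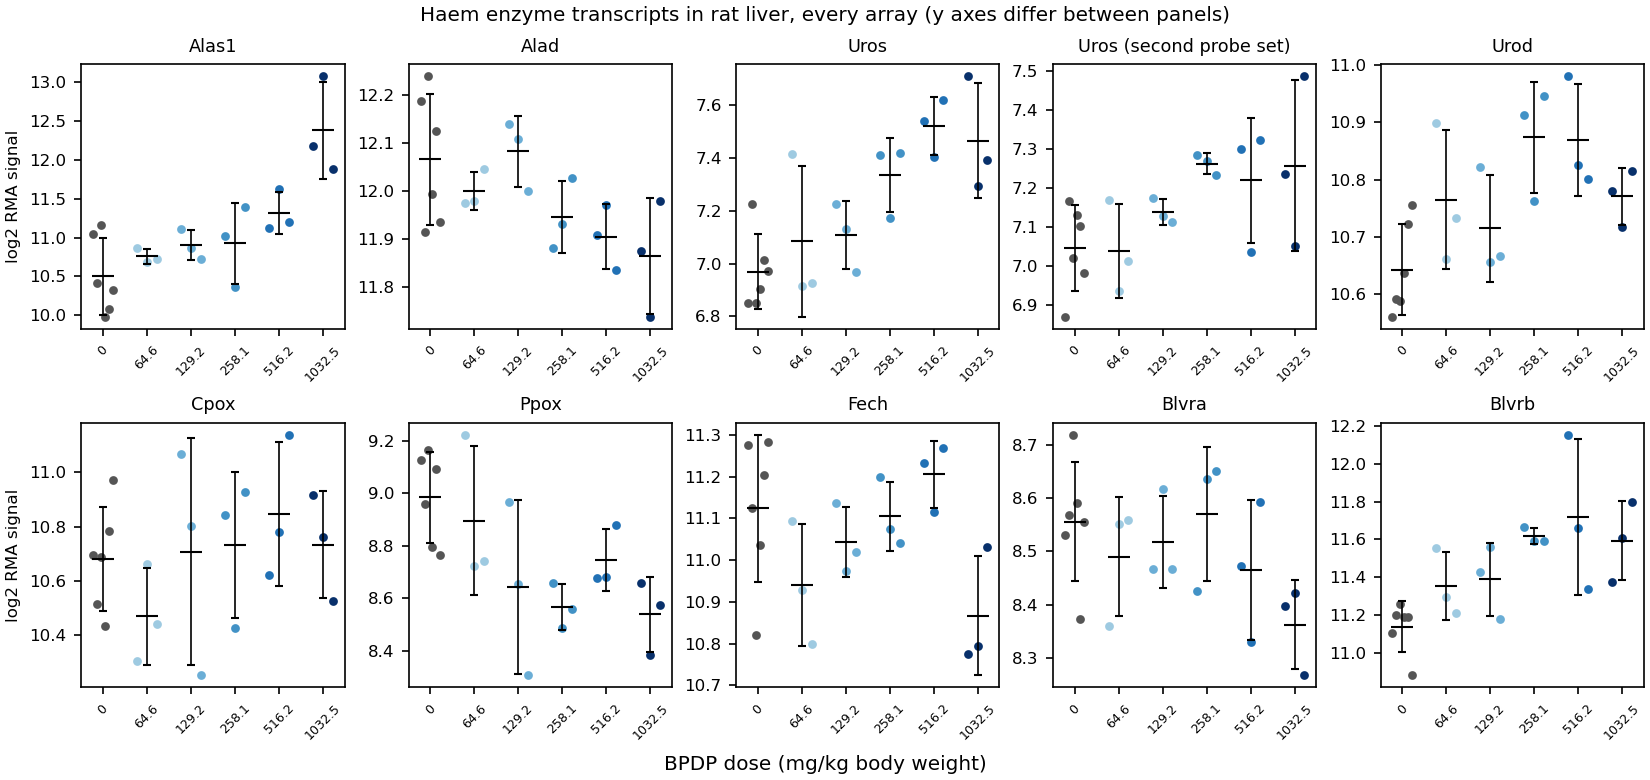
Log2 RMA signal (y axes, own range per panel) of the 10 probe sets for the 9 haem enzymes against BPDP dose in mg/kg (x axes). Each point is 1 array, horizontal bars are group means and error bars are SD (n = 6 for dose 0, n = 3 otherwise); the 3 Alas1 arrays at 1032.5 mg/kg sit between 11.88 and 13.07, above the highest vehicle array at 11.17.

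Alas1, the gateway enzyme, rose at the highest dose. Its vehicle arrays spanned 9.98 to 11.17 with a median of 10.38. At 64.6 mg/kg the 3 arrays read 10.86, 10.68 and 10.72. At 129.2 mg/kg they read 11.10, 10.87 and 10.72. These arrays all lay inside the vehicle range, which is wide for this gene because vehicle replicates 1 and 3 (11.04 and 11.17) stood above the other 4 (9.98 to 10.42). At 258.1 mg/kg Alas1 read 11.02, 10.36 and 11.39, and at 516.2 mg/kg 11.12, 11.62 and 11.20. The 1032.5 mg/kg arrays read 12.18, 13.07 and 11.88, all above every other array in the series. Signal in vehicle averaged 10.50 ± 0.49 (SD, n = 6) and at 1032.5 mg/kg 12.38 ± 0.62 (SD, n = 3), so that the spread within both groups was more than 2-fold on the linear scale.

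Against vehicle the Alas1 log2 change was 0.25, 0.40 and 0.42 at the 3 lower doses, with adjusted p of 0.89, 0.85 and 0.60. It was 0.81 (1.76-fold) at 516.2 mg/kg, which did not pass the threshold of 0.05 (limma, adjusted p = 0.0809) except when vehicle replicate 3 was left out (0.94, adjusted p = 0.0425). The change reached 1.87 (SE 0.27) at 1032.5 mg/kg, a 3.66-fold rise (adjusted p = 0.000148). That call was kept under all 30 alternatives tried, with changes from 1.5 to 2.12, including the 1 without replicate 2, the brightest array of the group (1.53, adjusted p = 0.00281). With RNA integrity as a covariate it was 1.85 (adjusted p = 0.000457).

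The order of the Alas1 group means followed dose at every step. The largest step, 1.06 (SE 0.31) between 516.2 and 1032.5 mg/kg, separated groups whose arrays did not overlap but missed the threshold after adjustment over all probe sets (adjusted p = 0.353). The 4 lower steps were 0.03 to 0.39, with adjusted p from 0.776 to 1. Between more distant doses, 1032.5 mg/kg exceeded 64.6 mg/kg by 1.62 (3.07-fold, adjusted p = 0.00834) and 129.2 mg/kg by 1.48 (adjusted p = 0.0247), whereas the gap of 1.45 to 258.1 mg/kg was not called (adjusted p = 0.115). The slope over dose steps, counting the vehicle as 0 and the doses as 1 to 5, was 0.30 per step over 21 arrays (adjusted p = 0.00035). Among the 15 dosed arrays, without the vehicle, it was 0.37 per step (adjusted p = 0.0114).

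Alad, porphobilinogen synthase, which condenses a pair of aminolevulinate molecules, was not called at any dose. Its vehicle arrays ran from 11.92 to 12.24 with a median of 12.06, and the 15 dosed arrays from 11.74 to 12.14. The difference at 1032.5 mg/kg was -0.20 (SE 0.08, adjusted p = 0.171), with arrays of 11.88, 11.74 and 11.98 that overlapped the vehicle. No alternative brought it past the threshold.

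Uros, uroporphyrinogen III synthase, closes the tetrapyrrole ring. Its representative probe set was the brighter of the pair over all arrays, dosed arrays included. In vehicle alone it was the dimmer (mean 6.97 against 7.04), so the choice drew on the arrays then tested. On it, vehicle arrays spanned 6.85 to 7.23 with a median of 6.94. The 64.6 mg/kg arrays read 7.42, 6.91 and 6.92, and the 129.2 mg/kg arrays 7.23, 7.13 and 6.97, both overlapping the vehicle. From 258.1 mg/kg (7.41, 7.17 and 7.42) upwards all but 1 of the 9 arrays exceeded the vehicle. The 516.2 mg/kg arrays, 7.54, 7.40 and 7.62, and the 1032.5 mg/kg arrays, 7.71, 7.29 and 7.39, all did so.

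Uros rose by 0.55 (SE 0.12), or 1.47-fold, at 516.2 mg/kg (adjusted p = 0.00867) and by 0.50, or 1.41-fold, at 1032.5 mg/kg (adjusted p = 0.0135); at 258.1 mg/kg the difference was 0.37 (adjusted p = 0.128). Its 5 dose coefficients differed jointly from 0 (moderated F, adjusted p = 0.0234), and its slope was 0.11 per dose step (adjusted p = 0.000373), but 0.12 per step with adjusted p = 0.0592 among dosed arrays alone. Without replicate 1 the 1032.5 mg/kg difference was 0.37 (adjusted p = 0.122). At 516.2 mg/kg it was 0.54 without replicate 1 (adjusted p = 0.0508) and 0.50 without replicate 3 (adjusted p = 0.0565), a change of similar size that missed the threshold. The second Uros probe set did not carry the calls. It read 0.17 at 516.2 mg/kg (adjusted p = 0.297) and 0.21 at 1032.5 mg/kg (adjusted p = 0.223), where its arrays of 7.24, 7.05 and 7.49 overlapped a vehicle range of 6.87 to 7.17, although its slope over 21 arrays passed (0.05 per step, adjusted p = 0.0393).

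Urod, uroporphyrinogen decarboxylase, trims the side chains of the ring. Its vehicle arrays lay between 10.56 and 10.76, with a median of 10.61. At 258.1 mg/kg they read 10.91, 10.76 and 10.95, at 516.2 mg/kg 10.98, 10.83 and 10.80, and at 1032.5 mg/kg 10.78, 10.72 and 10.82. The first 2 of these groups lay above all vehicle arrays and the last overlapped them. Differences were 0.23 at both 258.1 mg/kg (adjusted p = 0.129) and 516.2 mg/kg (adjusted p = 0.0821), and 0.13 at 1032.5 mg/kg (adjusted p = 0.413), none past the threshold. The 516.2 mg/kg difference passed it with array medians subtracted (0.28, adjusted p = 0.0489) and with probe sets averaged per gene (adjusted p = 0.0486).

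Cpox, coproporphyrinogen oxidase, showed no call and no order: vehicle arrays spanned 10.44 to 10.97, the dosed arrays 10.25 to 11.14, and the difference at 1032.5 mg/kg was 0.05 (adjusted p = 0.926). Ppox, protoporphyrinogen oxidase, makes the last precursor before iron is inserted. Its vehicle arrays lay between 8.76 and 9.17 with a median of 9.03. It read 8.66, 8.49 and 8.56 at 258.1 mg/kg, 8.68, 8.68 and 8.88 at 516.2 mg/kg and 8.66, 8.38 and 8.58 at 1032.5 mg/kg. All 3 arrays at 258.1 and at 1032.5 mg/kg were below all vehicle arrays.

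The Ppox difference was -0.42 at 258.1 mg/kg (adjusted p = 0.125), -0.24 at 516.2 mg/kg (adjusted p = 0.325) and -0.45 (SE 0.13) at 1032.5 mg/kg (adjusted p = 0.0535). The last stood near the threshold, passing it in 11 of 30 alternatives, among them without vehicle replicate 4 (adjusted p = 0.0458) or 6 (adjusted p = 0.0338). Over 21 arrays the Ppox slope fell by 0.08 per dose step (adjusted p = 0.0203); among dosed arrays it was -0.06 (adjusted p = 0.461).

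Fech, ferrochelatase, inserts iron into protoporphyrin. Vehicle arrays spanned 10.82 to 11.28 with a median of 11.16, and at 1032.5 mg/kg the arrays read 10.78, 10.79 and 11.03. That difference of -0.26 was not called (adjusted p = 0.147), but was when vehicle replicate 3, the lowest vehicle array, was left out (-0.32, adjusted p = 0.0401). At 516.2 mg/kg, by comparison, Fech read 11.23, 11.12 and 11.27, within the vehicle range.

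On the breakdown side Blvrb was called at 1 dose and Blvra at none; the difference between them was not tested. Blvra, the IX-alpha form, read 8.40, 8.42 and 8.27 at 1032.5 mg/kg against 8.37 to 8.72 in vehicle, a difference of -0.19 (adjusted p = 0.222). Blvrb, which is also a flavin reductase, had vehicle arrays from 10.88 to 11.26 with a median of 11.19. Its arrays read 11.55, 11.29 and 11.21 at 64.6 mg/kg and 11.43, 11.56 and 11.18 at 129.2 mg/kg. They read 11.67, 11.59 and 11.59 at 258.1 mg/kg, 12.15, 11.66 and 11.34 at 516.2 mg/kg, and 11.38, 11.61 and 11.80 at 1032.5 mg/kg. In each of the 3 upper dose groups every array exceeded every vehicle array.

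Blvrb rose by 0.58 (SE 0.14), or 1.49-fold, at 516.2 mg/kg (adjusted p = 0.0165). Differences of 0.48 at 258.1 mg/kg (adjusted p = 0.0775) and 0.46 at 1032.5 mg/kg (adjusted p = 0.0551) did not pass. No pair of dosed groups differed by the test (adjusted p from 0.256 to 1), which does not show that they were alike. Its slope was 0.11 per step over 21 arrays (adjusted p = 0.00296) and 0.08 among dosed arrays (adjusted p = 0.325). The 516.2 mg/kg call was lost without replicate 1, the array at 12.15 (0.36, adjusted p = 0.178). It was also lost in a fit of the compared groups alone (adjusted p = 0.0534) and with the replicate block (adjusted p = 0.0799).

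**Figure D2:**
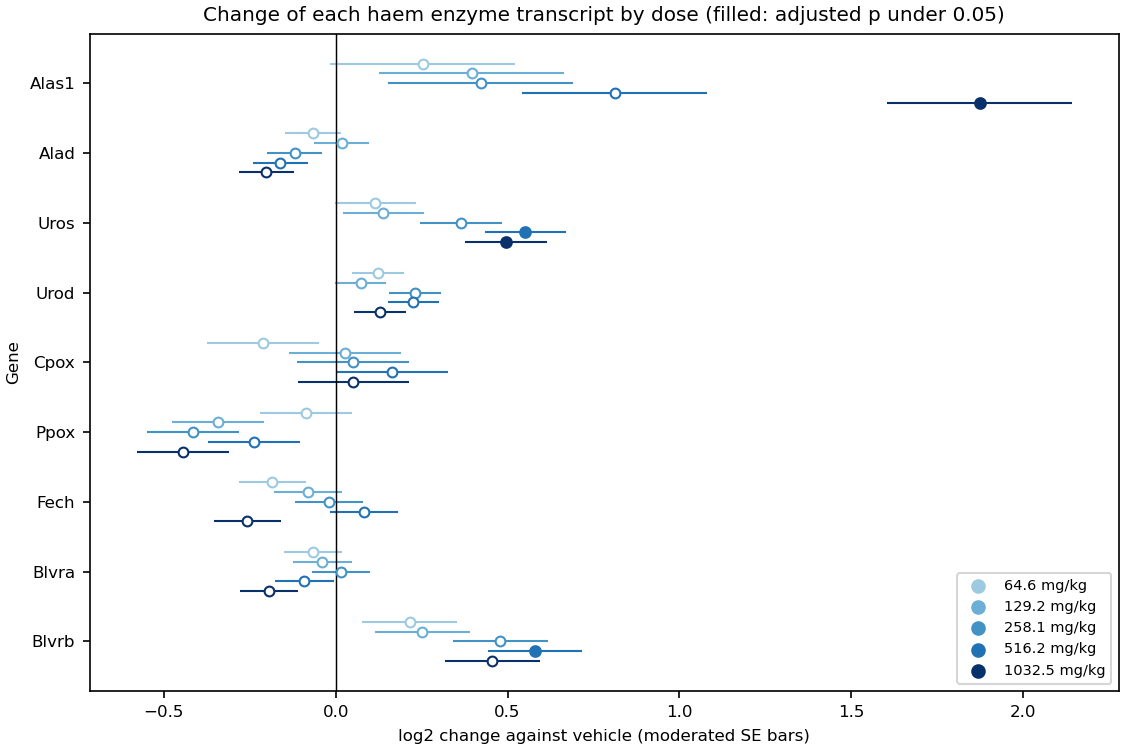
Log2 change against vehicle (x axis) of each of the 9 haem enzymes (y axis) at 5 doses, coloured by dose in mg/kg. Points are differences of group means on the representative probe set, bars are limma's moderated SE, and filled points have an adjusted p under 0.05; Alas1 at 1032.5 mg/kg is farthest out at 1.87, while the other 8 genes stay between -0.45 and 0.58.

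Counted over the 9 enzymes, none was called at 64.6 mg/kg (background over all 14217 genes 0.197% higher and 0.190% lower; 0 members at unadjusted p under 0.05). None was called at 129.2 mg/kg (0.352% higher, 0.169% lower; 1 member at unadjusted p under 0.05) or at 258.1 mg/kg (2.23% higher, 1.33% lower; 4 members at unadjusted p under 0.05). At 516.2 mg/kg 2 of 9 were called higher, Uros and Blvrb, and none lower, where 6.30% of genes were called higher and 2.64% lower. There 4 members had an unadjusted p under 0.05. At 1032.5 mg/kg 2 of 9 were called higher, Alas1 and Uros, and none lower, against 4.81% and 4.14% of genes. At that dose 7 members had an unadjusted p under 0.05: Alas1, Uros and Blvrb, which were higher, and Alad, Ppox, Fech and Blvra, which were lower. The percentages are for adjusted calls, and the share of all genes at unadjusted p is not given here. The moderated F over the 5 doses called Alas1 and Uros (2 of 9, background 6.71%). The Uros calls rest on its representative probe set. Its second probe set was called at no dose and not by the moderated F (adjusted p = 0.393). The slope over 21 arrays called Alas1, Uros and Blvrb upwards (3 of 9; background 8.76%) and Ppox downwards (1 of 9; background 6.25%), and the slope among dosed arrays called Alas1 (1 of 9; background 3.41%). All 5 dose comparisons share the same vehicle arrays. The median change of the 9 enzymes was 0.16 at 516.2 mg/kg and 0.05 at 1032.5 mg/kg, beside 0.00 and -0.01 over all genes. Members went both ways at 1032.5 mg/kg, from -0.45 to 1.87, so a median near 0.05 does not show that the set was still.

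Arrays within a group also differed across enzymes. Vehicle replicates 1 and 3 were the 2 highest vehicle arrays for Alas1, Alad and Ppox and the 2 lowest for Uros. At 1032.5 mg/kg replicate 2 was the highest array of its group for Alas1 and the lowest for Alad, Uros, Urod and Ppox. Members measured on the same array share its RNA, so these are descriptions of 3 arrays and not independent observations.

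Among 21 genes known to control Alas1 or to move haem and its precursors, 19 were measured. Of these, 2 rose (Nr1d1 and Slc48a1) and 1 fell (Clpx) at 1032.5 mg/kg, with a list median of 0.16. Over all genes 4.81% were called higher and 4.14% lower at that dose, so these counts lie near the background. The same shares stand beside the counts of the lists that follow. Clpx is the unfoldase subunit of the mitochondrial ClpXP protease, which acts on the ALAS proteins. Its vehicle arrays spanned 11.30 to 11.61, and it read 10.62, 10.56 and 10.76 at 64.6 mg/kg and 10.57, 10.41 and 10.88 at 1032.5 mg/kg. All 15 dosed arrays, the highest at 11.16, lay below every vehicle array.

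Clpx fell by 0.85 at 64.6 mg/kg (adjusted p = 0.00759) and by 0.88, or 1.84-fold, at 1032.5 mg/kg (adjusted p = 0.000543). It was also called lower at 258.1 mg/kg (-0.67, adjusted p = 0.0143) and 516.2 mg/kg (-0.65, adjusted p = 0.0104), and at 129.2 mg/kg it was -0.66 (adjusted p = 0.0502). Among dosed arrays Clpx had no called slope (-0.01 per step, adjusted p = 0.969), whereas the Alas1 slope there was 0.37. The low Clpx signal was present at 64.6 mg/kg, a dose at which Alas1 was within its wide vehicle range. A Clpx change of this shape cannot be told apart from any other difference between the vehicle arrays and the dosed arrays. A link or an order between the changes of Clpx and Alas1 was not tested.

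Nr1d1, a haem-binding nuclear receptor of the circadian clock, was higher at every dose. Vehicle arrays read 5.77 to 6.81, the 64.6 mg/kg arrays 9.04, 9.09 and 9.65, and the 1032.5 mg/kg arrays 8.88, 8.35 and 8.44. Its change was 2.81 at 64.6 mg/kg (adjusted p = 2.74e-06) and 2.11 at 1032.5 mg/kg (adjusted p = 1.44e-05). Among dosed arrays its slope was -0.16 per step and not called (adjusted p = 0.148). A dose effect of this shape cannot be told apart from any other difference between the vehicle arrays and the rest. That was not tested, and every comparison with the vehicle shares those arrays. Slc48a1, a transporter of haem out of endosomes and lysosomes, rose by 0.46 at 1032.5 mg/kg (adjusted p = 0.0135); the call was lost without replicate 2 (adjusted p = 0.121) or 3 (adjusted p = 0.085), with the compared groups alone (adjusted p = 0.0513) and with cyclic loess (adjusted p = 0.0637). At 516.2 mg/kg the list had 4 rises and 1 fall among 19 measured, where 6.30% of all genes were called higher and 2.64% lower. Named here after their values were seen, Lonp1, a mitochondrial protease, rose by 0.43 and Pgrmc1, a haem-binding membrane protein, by 0.27 at that dose.

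**Figure D3:**
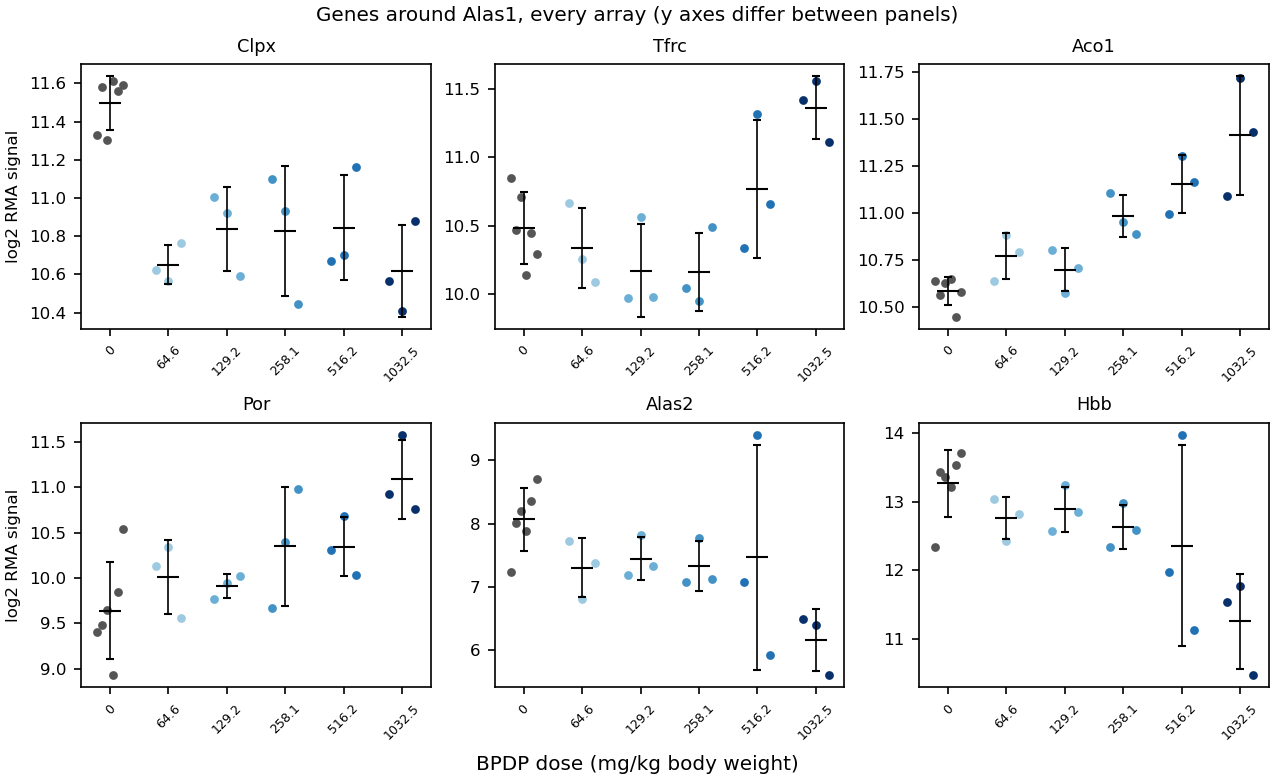
Log2 RMA signal (y axes, own range per panel) against BPDP dose in mg/kg (x axes) for 6 genes near Alas1 in function: Clpx, Tfrc, Aco1, Por, Alas2 and Hbb. Each point is 1 array, horizontal bars are means and error bars SD (n = 6 at dose 0, n = 3 otherwise); Clpx lies below all vehicle arrays at every dose, and Alas2 and Hbb share a high array at 516.2 mg/kg (9.40 and 13.98).

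Iron handling supplies the metal for ferrochelatase, and 13 of the 16 genes listed for it were measured. Of these, 3 rose and 1 fell at 1032.5 mg/kg (background 4.81% higher and 4.14% lower), and the list median was -0.01, the same as over all genes. Aco1, the cytosolic aconitase that serves as iron regulatory protein, read 11.09, 11.72 and 11.43 there against 10.45 to 10.65 in vehicle. It rose by 0.57 at 516.2 mg/kg (adjusted p = 0.00344) and by 0.83 at 1032.5 mg/kg (adjusted p = 5.03e-05), and its slope among dosed arrays was 0.17 per step (adjusted p = 0.00585).

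Tfrc, the transferrin receptor, had vehicle arrays of 10.14 to 10.85 and read 11.42, 11.56 and 11.11 at 1032.5 mg/kg. That rise of 0.88 (adjusted p = 0.0100) was called at no lower dose and was lost without replicate 2 (0.78, adjusted p = 0.075) and with the replicate block (adjusted p = 0.117). Hfe, which associates with transferrin receptors, rose by 0.47 at 1032.5 mg/kg (adjusted p = 0.0353), a call lost on leaving out any of the 3 dosed arrays there or vehicle replicate 1, 2 or 3 (adjusted p from 0.0503 to 0.189) and with cyclic loess (adjusted p = 0.0766). Steap3, an endosomal iron reductase, fell by 0.72 (adjusted p = 0.021), lost without replicate 1 (adjusted p = 0.0694) or 2 (adjusted p = 0.142).

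Among haem proteins and their partners 16 of 18 were measured. At 1032.5 mg/kg 5 rose and 2 fell (background 4.81% higher and 4.14% lower), with a list median of 0.22. Por, which passes electrons to microsomal cytochromes P450, read 10.93, 11.58 and 10.76 at 1032.5 mg/kg against 8.93 to 10.54 in vehicle and rose by 1.45 (adjusted p = 0.00333). Cyp1a1 rose by 2.33 (5.02-fold, adjusted p = 4.82e-06), Cyp4a1, a fatty acid hydroxylase, by 1.37 (adjusted p = 0.000517) and Cyp3a23-3a1, a drug-inducible P450, by 0.88 (adjusted p = 0.000365). Cyb5a, cytochrome b5, named here after its values were seen, rose by 0.45. Cyp1a2 fell by 1.16 (adjusted p = 8.69e-07) and Cyp2c11, the male-specific P450, by 0.92 (adjusted p = 0.00124), or by 0.56 without replicate 1. Cyp4a1 and Cyp3a23-3a1 were also called higher at 258.1 mg/kg, by 1.20 (adjusted p = 0.00517) and 0.71 (adjusted p = 0.00757). The Alas1 difference at that dose was 0.42 (SE 0.27) and not called. Whether these genes and Alas1 differed in their response was not tested, so no order between them is given. Cyp genes have close paralogues, so how far a probe set reads a single Cyp is uncertain.

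Downstream of the biliverdin reductases, 5 of the 6 genes listed for bilirubin disposal were measured; Ugt1a1, which conjugates bilirubin, has no probe set that names it alone. The highest dose had 3 rises and 1 fall (background 4.81% higher and 4.14% lower). Abcc3, an exporter of conjugates across the sinusoidal membrane, rose by 3.17 (8.98-fold, adjusted p = 3.3e-07), and Gsta3, an alpha-class glutathione transferase, by 2.76 (6.78-fold, adjusted p = 3.61e-08). Both were called from 129.2 mg/kg, at 1.52 (adjusted p = 0.0102) and 1.24 (adjusted p = 0.00409). Abcc2, the canalicular exporter of bilirubin glucuronides, rose by 0.58 (adjusted p = 0.00993), lost without replicate 1 (adjusted p = 0.0965) or 2 (adjusted p = 0.0864) and with the replicate block (adjusted p = 0.0505). Slco1a1, an uptake transporter, fell by 0.30 (adjusted p = 0.0266), lost without vehicle replicate 1 (adjusted p = 0.0526) or without replicate 2 (adjusted p = 0.168) or 3 (adjusted p = 0.0565) of that dose. That call was also lost with array medians subtracted (adjusted p = 0.0666), the RNA integrity covariate (adjusted p = 0.0604) and the replicate block (adjusted p = 0.0896).

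Hmox2, the constitutive haem oxygenase, read 9.98 ± 0.16 (SD, n = 6) in vehicle and 10.27 ± 0.06 (SD, n = 3) at 1032.5 mg/kg, a difference of 0.29 that was not called (adjusted p = 0.115) except without vehicle replicate 6 (adjusted p = 0.0371) and with array weights (adjusted p = 0.0421). Alas2, the erythroid form of the first enzyme, went the opposite way to Alas1. Vehicle arrays spanned 7.23 to 8.70, and at 1032.5 mg/kg it read 6.50, 6.40 and 5.61, all below vehicle. Alas2 fell by 1.90, or 3.73-fold (adjusted p = 0.0186), a call lost without replicate 2 (adjusted p = 0.0523) or 3 (adjusted p = 0.115) and with the replicate block (adjusted p = 0.0926).

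Hbb, a haemoglobin chain made by red cell precursors, fell by 2.01 (adjusted p = 0.00506), lost without replicate 3 (adjusted p = 0.0567), and Hemgn, an erythroid nuclear protein, by 0.44 (adjusted p = 0.0178), lost without replicate 1 (adjusted p = 0.117) and with the replicate block (adjusted p = 0.0803). Of 13 red cell and erythroid markers 8 were measured. At 1032.5 mg/kg 0 rose and these 3 (Alas2 included) fell, where 4.14% of genes were called lower. Slc4a1 (-0.18), Ahsp (-0.46), Epb42 (-0.24), Rhag (0.13) and Klf1 (0.07) were not called. Several of these probe sets were dim. Hemgn averaged 4.94 in vehicle and 4.50 at 1032.5 mg/kg, and Rhag 4.88 in vehicle, where array lower quartiles were 4.95 to 5.10. Vehicle means of Epb42 (5.53), Klf1 (6.14) and Ahsp (6.19) lay below the array medians of 6.30 to 6.39. The log2 of the summed linear signal of the 8 measured markers was 10.80 to 11.92 at 1032.5 mg/kg and 12.46 to 13.80 in vehicle. That sum is mostly Hbb, which alone read 10.47 to 11.76 and 12.34 to 13.72, so it adds little beyond Hbb. At 516.2 mg/kg replicate 2 was high in both Alas2 and Hbb, and the summed signal spanned 11.34 to 14.07. In bulk tissue fewer cells of a type and less RNA per cell cannot be told apart. Enzymes of haem synthesis are also made in red cell precursors, and the part of that signal in the 9 enzymes was not tested.

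Markers of other cell types were followed too. Of the 6 measured of 8 Kupffer cell and macrophage markers, a cell type that breaks down red cell haem, Cd163 fell at 1032.5 mg/kg by 0.79 (adjusted p = 0.00541; lost without replicate 3, adjusted p = 0.0529) and Adgre1 by 0.73 (adjusted p = 0.033), with a summed log2 signal of 12.03 to 12.43 against 12.49 to 13.16 in vehicle. The Adgre1 call was lost without replicate 2 or 3 or vehicle replicate 1, 2 or 3 (adjusted p up to 0.211) and with the RNA integrity covariate (adjusted p = 0.0711). Cd68 (-0.44), Clec4f (-0.60), Csf1r (-0.63) and Cd5l (-0.68) were also lower at 1032.5 mg/kg but not called. The median of this list was -0.65 there, beside -0.01 over all genes. Of 3 measured cholangiocyte markers Epcam rose by 0.71 (adjusted p = 0.00233), while Krt19 read -0.39 and Krt7 -0.09, neither called, and the list median was -0.09. Of 4 stellate cell markers Pdgfrb fell by 0.95 (adjusted p = 0.000604), or by 0.40 with its probe sets averaged. None of 4 endothelial markers was called at that dose. Where Uros and Blvrb were called, at 516.2 mg/kg, 1 of 4 endothelial markers fell, Kdr (-0.66, adjusted p = 0.0192). Of 4 stellate markers 2 fell, Lrat (-0.66, adjusted p = 0.0341) and Pdgfrb (-0.85, adjusted p = 0.00266). Of 3 measured cholangiocyte markers Epcam rose (0.73, adjusted p = 0.00311), while Krt19 read -0.16 and Krt7 -0.31, neither called. No Kupffer cell marker was called there, with a list median of -0.52. Over all genes 6.30% were called higher and 2.64% lower at that dose. The part of these markers in the enzyme results was not tested.

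**Figure D4:**
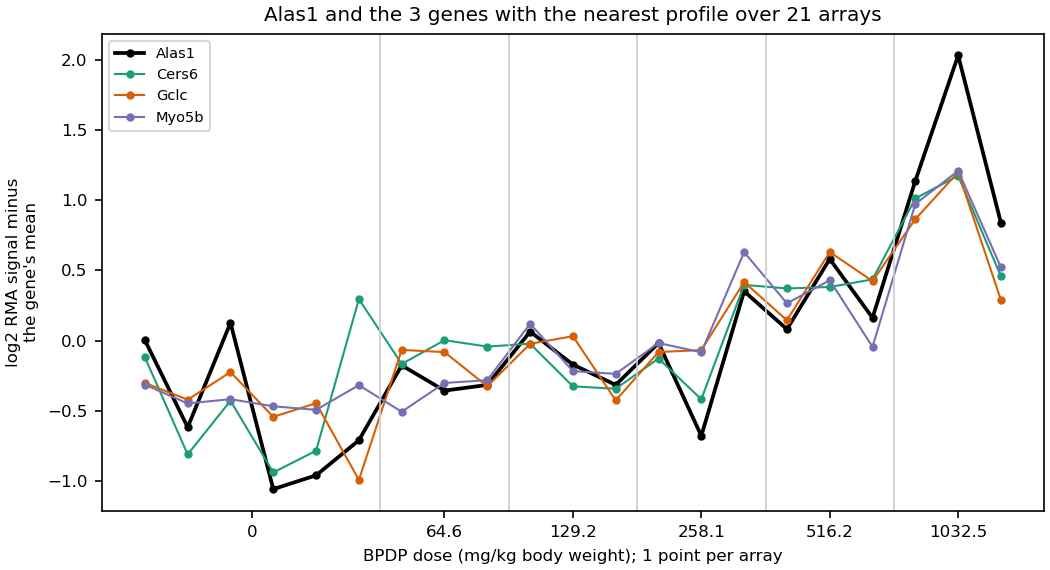
Log2 RMA signal minus each gene's mean over 21 arrays (y axis) for Alas1 and the 3 genes with the nearest profile, Cers6, Gclc and Myo5b, with arrays grouped by BPDP dose in mg/kg (x axis). Each point is 1 array and lines join a gene's arrays for the eye, since replicates have no order; at 1032.5 mg/kg the 3 other genes changed by 1.27 to 1.35 and Alas1 by 1.87.

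For Alas1 and Uros, the members called by the F test, the genes with the nearest profiles were sought by the mean absolute difference of log2 signals, each centred on its gene's mean, over the 21 arrays. Nearest to Alas1 were Cers6, a ceramide synthase, at 0.27, Gclc, the catalytic subunit of glutamate-cysteine ligase, at 0.27, and Myo5b, a myosin motor, at 0.28, where the median over all genes was 0.54. At 1032.5 mg/kg Cers6 differed from vehicle by 1.35, Gclc by 1.27 and Myo5b by 1.31. Nearest to Uros were Igbp1 at 0.08, Mrpl1, a protein of the mitochondrial ribosome, at 0.08, and Slc25a28, a mitochondrial iron importer, at 0.08, with a median over all genes of 0.25. Their differences at 516.2 mg/kg were 0.50, 0.51 and 0.53. None of these passed the moderated F (adjusted p = 0.0832, 0.0508 and 0.0956), whereas Cers6, Gclc and Myo5b did. The Uros profile used was that of its representative probe set. These likenesses were ranked over the same arrays that gave the profiles and carry no test.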

How the data were processed

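Total RNA (100 ng per liver) was amplified, biotin-labelled and hybridised to 21 arrays. Signals deposited on a log2 scale come from RMA, per the submitters' processing notes; version and settings were not given in the sources used here. They were used unscaled and unfiltered. After removal of 57 controls, 31042 probe sets were tested; 20826 name 1 gene, updated to RefSeq symbols, and the brightest of these stands for each of 14217 genes. Arrays carry no depth; their number limits the precision.

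limma 3.58.1 in R 4.3.3 fitted all 21 arrays with 1 coefficient per dose group. P-values are two-sided and Benjamini-Hochberg adjusted over all probe sets per comparison, with a threshold of 0.05; SEs are moderated, and folds are log2 changes turned back to the linear scale. The script was tested on simulated data.

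All members are named, with list genes called at 1032.5 mg/kg (up to 6 a list, by size), pathway neighbours and nearest profiles. Members and lists were chosen with earlier results of these data known. Alternatives were the compared groups alone, cyclic loess, median subtraction, removal of the dimmest probe sets, trended robust variance, array weights, a fold of at least 1.5, an RNA integrity covariate, other probe-set and dose scales, a replicate block and each array left out; for list genes these were added after seeing the data. A planned item is not reported here.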

Additional observations from a re-analysis of the deposited data

How the results depend on the processing

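No difference of an enzyme changed direction where it was called. The same held at 1032.5 mg/kg for the list genes whose alternatives were examined. Alternatives are not given here for list genes at lower doses or for the other named genes. Counts of called enzymes moved as follows. At 129.2 mg/kg array weights gave 2 (0 in the fit reported). At 258.1 mg/kg the compared groups alone gave 1, array weights 2 and leaving out 1 array 0 to 1. At 516.2 mg/kg the compared groups alone gave 1, a fold of at least 1.5 gave 0, median subtraction and averaged probe sets gave 3 (with Urod) and leaving out 1 array 0 to 3. At 1032.5 mg/kg the count was 4 with the compared groups alone, without the dimmest probe sets, with array weights and with probe sets averaged per gene, where Ppox and Blvrb joined Alas1 and Uros; it was 3 with cyclic loess (with Ppox), median subtraction and trended robust variance (both with Blvrb), 1 with a fold of at least 1.5 and 2 to 4 on leaving out 1 array. The F test called 4 with array weights and 1 to 2 on leaving out 1 array. The slope among dosed arrays called 2, Alas1 and Uros, with cyclic loess, array weights or the RNA integrity covariate, and 1 to 2 on leaving out 1 array. The cause was not tested.

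The labels do not say whether replicate numbers pair the arrays. Deviations from group means of same-numbered arrays correlated at -0.28 to 0.39 over 45 pairs (mean 0.03). Those of arrays with different numbers correlated at -0.44 to 0.30 over 135 pairs (mean -0.01). The ranges overlap and their difference was not tested, so pairing is not excluded. With the replicate block 1 enzyme was called at 516.2 mg/kg (Uros), 1 by the F test and 2 by the slope among dosed arrays; Alas1 at 1032.5 mg/kg was 1.5 (adjusted p = 0.00645), Uros 0.49 (adjusted p = 0.058) and Ppox -0.54 (adjusted p = 0.0271), and the probe sets called at 1032.5 mg/kg went from 1024 higher and 884 lower to 867 and 616. Precision was limited by 3 arrays a dose, and signals carry no read depth.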
